A study of Schizosaccharomyces pombe with 32 samples.

Results

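Glutathione is a small thiol peptide that keeps the proteins of the yeast cell reduced and serves as the electron donor for several peroxide-removing and thiol-repairing enzymes. It is made from glutamate, cysteine and glycine in consecutive enzymatic steps, is oxidised to a disulfide when it is used, and is returned to its reduced form with NADPH. The 10 fission yeast genes described here cover this cycle. gcs1 (glutamate-cysteine ligase) and gsa1 (glutathione synthetase) make glutathione, and pgr1 (glutathione reductase) returns it to its reduced form. gst1, gst2 and gst3 encode glutathione S-transferases, which join glutathione to other molecules. gpx1 encodes a glutathione peroxidase, a peroxide-reducing enzyme. grx1 encodes a dithiol glutaredoxin, which reduces disulfides with glutathione, and grx4 and grx5 encode monothiol glutaredoxins, a class that uses glutathione to hold iron-sulfur clusters.

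The genes were chosen by name. Each of the 10 symbols stood on 1 probe set of the platform annotation, which gave 10 of the 4972 probe sets on the array, and each kept its symbol in the RefSeq gene table. The loci are SPAC22F3.10C for gcs1, SPAC3F10.04 for gsa1, SPBC17A3.07 for pgr1, SPCC191.09C for gst1, SPCC965.07C for gst2, SPAC688.04C for gst3, SPBC32F12.03C for gpx1, SPAC4F10.20 for grx1, SPBC26H8.06 for grx4 and SPAPB2B4.02 for grx5. Older names in that table are apd1 and gsh1 for gcs1, gsh2 for gsa1 and TTase1 for grx1.

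All cultures were of Schizosaccharomyces pombe strain JB50, a homothallic h90 strain, which can switch mating type and mate within its own culture. They grew as shaken batch cultures in YES, a rich broth, at 32 degrees Celsius. The stressed series held 22 arrays: 2 cultures sampled at 0 min, before peroxide, and then under 0.5 mM hydrogen peroxide at 5, 10 and 15 min, at 30, 50 and 60 min, and at 90, 120, 180 and 240 min. The untreated series held 10 arrays: 2 cultures without peroxide sampled at 0, 60, 120, 180 and 240 min. According to the growth notes the stressed flasks started at more than 1 cell density, and no density is tied to either of the stressed cultures on the arrays. Total RNA was labelled with biotin and read on single-colour Affymetrix arrays.

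The value per probe set is the deposited signal, a linear number whose calibration is unknown. The signals of different genes are therefore not set against each other here, apart from a rank of the mean signal given for gst1. A change is the log2 difference between the mean of 2 cultures at a time and their mean at 0 min, with the standard error (SE) from limma's fit of all 32 arrays. A gene was called where limma's p, adjusted by the Benjamini-Hochberg method over all 4972 probe sets, was under 0.05. A further 2 fits are given where they change a call. One held only the 16 arrays at stressed 0, 5, 10, 15, 50 and 60 min and untreated 0 and 60 min. It leaves out the 30 min arrays and all later ones. The other kept all arrays and took the culture as a block, since each culture was followed through time. The RNA came from whole cultures, so that fewer cells carrying a transcript and less of it in each cell cannot be told apart.

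Facts of the arrays bear on several values below. Array medians lay between 1.52 and 2.0. The 30 min array of stressed culture 2 stood apart, with r = 0.909 to the array most like it, where every other array had at least 0.973. Over all probe sets the changes of the 2 stressed cultures correlated with r = 0.35, 0.50, 0.63, 0.59, 0.85 and 0.83 at 5, 10, 15, 30, 50 and 60 min. That r was 0.62 and 0.67 at 90 and 120 min, and 0.29 and 0.04 at 180 and 240 min, so that a mean over both cultures at the last times averages unlike profiles. These correlations run across genes, which are no replicates of one another.

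Both genes of glutathione synthesis rose at 30 min. The signal of gcs1 was 5.45, 6.78, 6.96, 8.07, 11.9, 9.57, 8.47, 7.63, 7.36, 5.96 and 6.84 in stressed culture 1 from 0 to 240 min. In stressed culture 2 it was 5.17, 5.05, 6.79, 7.9, 8.52, 8.42, 9.0, 7.46, 7.3, 7.63 and 7.17 at the same times. In untreated culture 1 it was 5.39, 4.44, 4.51, 4.44 and 4.0 at 0, 60, 120, 180 and 240 min, and in untreated culture 2 it was 6.26, 4.73, 5.37, 4.47 and 5.71. Both stressed cultures were above their own 0 min signal at every time from 10 min on, and both untreated cultures were below theirs at every later time. At 30 min gcs1 averaged 10.2 ± 2.42 in stressed cultures, against 5.31 ± 0.197 at 0 min (SD, n = 2 each), a change of 0.93 ± 0.21 (SE, limma adjusted p = 0.0401).

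gsa1, which adds glycine in the last step of synthesis, was highest at 30 min in both stressed cultures, as were 7.26% of all probe sets. Its signal was 2.55, 2.81, 2.75, 3.21, 4.36, 3.37, 2.89, 2.27, 2.97, 2.19 and 1.93 in stressed culture 1 from 0 to 240 min. In stressed culture 2 it was 2.32, 2.52, 2.82, 3.06, 5.8, 2.99, 2.64, 2.92, 2.82, 2.67 and 2.64. The untreated arrays lay between 2.36 and 2.94 with a median of 2.64 over 10 arrays, so that both stressed arrays at 30 min were above every untreated array. At 30 min gsa1 averaged 5.08 ± 1.02 in stressed cultures, against 2.43 ± 0.161 at 0 min, and rose by 1.05 ± 0.20 (SE, limma adjusted p = 0.0202). By 60 min its change was 0.18 ± 0.20 (SE, limma adjusted p = 0.636), and 0.12 to 0.25 on leaving out an array or culture. Unlike gcs1, its means at 180 and 240 min were at or under that at 0 min, with changes of -0.01 and -0.11.

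These 2 genes were the members called at 30 min, out of 10, where 0.865% of all probe sets were called higher and 1.07% in either direction. By size alone, the 30 min changes of gcs1 and gsa1 stood at percentiles 91.3 and 93.0 of all probe sets. The untreated series has no 30 min array, so no untreated change at that time could be set beside them. The stressed 30 min array of culture 2, the one that stands apart, held the highest gsa1 signal of the series. Without that array gcs1 had a change of 1.17 (adjusted p = 0.0736) and gsa1 one of 0.84 (adjusted p = 0.163), and neither was called. The gcs1 call was lost on leaving out any single array of the compared times, and the gsa1 call on leaving out any of them but the 30 min array of culture 1, while all these changes stayed positive. With the culture as a block both were called more firmly (limma adjusted p = 0.00739 for gcs1 and 0.00354 for gsa1). The block also called gst2 higher and grx4 lower at 30 min, 4 members in all, against 8.17% of all probe sets.

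For gcs1 the stressed and the untreated series parted. Its change at 60 min was 0.64 and 0.80 in stressed cultures 1 and 2, against -0.28 and -0.40 in untreated cultures 1 and 2. The difference of these changes, stressed minus untreated, was 1.06 ± 0.30 (SE) in the fit of all arrays (limma adjusted p = 0.404). The fit of the 16 early arrays called it, with an SE of 0.26 and an adjusted p of 0.0486. gcs1 was the 1 member called there, against 3.42% of all probe sets. The call depended on which arrays entered the fit. A fit of the compared arrays alone did not call gcs1 (limma adjusted p = 0.0953) but called gst2 (0.0317) and gst3 (0.0407), against 2.63% of all probe sets. The culture as a block called none of the 10 (adjusted p = 0.11 for gcs1), against 0.282%, and the fit of all arrays called 0 members and 0.0402% of probe sets. Before adjustment 2 members were below 0.05 in the fit of all arrays, against 6.62% of all probe sets. The differences at 120, 180 and 240 min were 0.71, 0.73 and 0.68 and were not called. By a rule chosen after the values were seen, gcs1 was also the 1 member with both stressed cultures above and both untreated cultures below their own 0 min signal at all 4 shared times, a pattern that 0.825% of all probe sets had.

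pgr1, the gene of the reductase, stayed close to its 0 min signal at most times. In stressed culture 1 it ranged from 7.45 at 15 min to 11.2 at 240 min, and in stressed culture 2 from 7.67 at 10 min to 14.7 at 30 min. The 10 untreated arrays ranged from 7.57 to 11.8 with a median of 9.41. The 30 min array of culture 2 was thus the 1 stressed array above every untreated one. Its largest mean change was 0.44 ± 0.20 (SE) at 30 min (limma adjusted p = 0.323), and at 60 min it was 0.03 ± 0.20 (SE). It was not called in any comparison by the fit of all arrays, the fit of the 16 early arrays or the fit with the culture as a block.

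**Figure D1:**
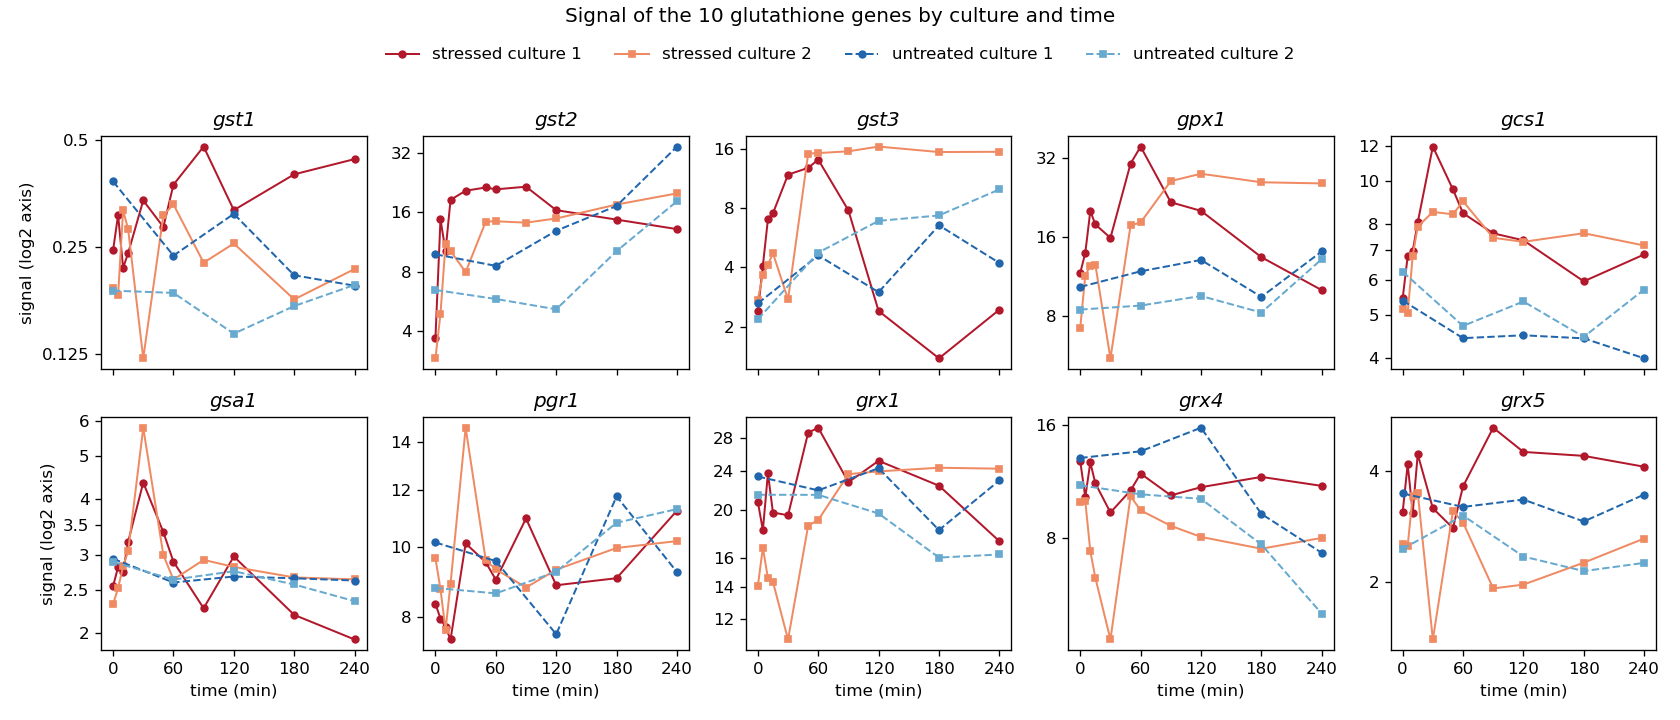
Deposited signal (log2-spaced vertical axis, one scale per gene) of the 10 glutathione genes against time in min, 1 line per culture and 1 point per array; solid red and orange lines are the 2 stressed cultures and dashed blue lines the 2 untreated ones. gst3 reached 14.1 and 15.3 at 60 min in the stressed cultures, gsa1 peaked at 30 min in both, and gst1 stayed under 0.5 throughout.

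The transferase genes gst2 and gst3 had the largest changes of the 10 at 60 min. The signal of gst2 was 3.72, 14.8, 10.2, 18.5, 20.6, 21.3, 20.9, 21.5, 16.4, 14.7 and 13.1 in stressed culture 1 from 0 to 240 min. In stressed culture 2 it was 2.92, 4.91, 11.04, 10.2, 7.97, 14.4, 14.4, 14.2, 14.9, 17.5 and 19.9. In untreated culture 1 it was 9.81, 8.57, 12.9, 17.2 and 34.4 at 0, 60, 120, 180 and 240 min, and in untreated culture 2 it was 6.47, 5.83, 5.17, 10.2 and 18.2. Every stressed array after 0 min was above that culture's own 0 min array, and gst2 was at least 2-fold up from 5 min in culture 1 and from 10 min in culture 2. From 10 min on, gst2 and gcs1 were above their own 0 min arrays in all 18 stressed arrays, as were 3.02% of all probe sets. The start at 10 min was not fixed beforehand, and at 5 min gcs1 was under its 0 min signal in stressed culture 2. The untreated cultures were near their 0 min signal at 60 min and high by 240 min.

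At 60 min gst2 averaged 17.6 ± 4.59 in stressed cultures, against 3.32 ± 0.563 at 0 min (SD, n = 2 each), a change of 2.40 ± 0.54 (SE). The fit of all arrays placed it just outside the threshold (limma adjusted p = 0.0504), and likewise at 50 min (0.0608) and 90 min (0.0535). Without the 30 min array of stressed culture 2 the same fit called it at 60 min (adjusted p = 0.0378), and without either 0 min array of the stressed series the adjusted p was 0.319 and 0.516. gst2 rose at 50 and 60 min in the fit of the 16 early arrays (limma adjusted p = 0.00653 and 0.0071). With the culture as a block it rose at every time from 30 to 240 min, with adjusted p between 0.00617 at 50 min and 0.0451 at 240 min. It was then the 1 member called at 50 min (1.05% of all probe sets) and 60 min (1.09%). The same held at 90, 120, 180 and 240 min, where 0.764%, 0.221%, 0.0805% and 0.0402% of probe sets were called.

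The starting points of gst2 lay apart between the series before any peroxide was added. It averaged 3.32 ± 0.563 in stressed cultures at 0 min, against 8.14 ± 2.36 in untreated cultures at 0 min, and the arrays of the series did not overlap. The difference of -1.27 ± 0.54 (SE) was not called (limma adjusted p = 1.0), and 0.362% of all probe sets had one as low. No probe set was called in that comparison (0%), where 1 of the 10 members, gst2, had an unadjusted p under 0.05, as did 1.31% of all probe sets. Taking all 4 arrays at 0 min as the baseline, the change of gst2 at 60 min was 1.76 (adjusted p = 0.046). Its change in the stressed series less that in the untreated series was 2.57 ± 0.77 (SE) at 60 min (limma adjusted p = 0.404, 0.0639 in the fit of the 16 early arrays, 0.0542 with the block and 0.0317 in the fit of the compared arrays alone). At 120, 180 and 240 min it was 2.21, 1.55 and 0.65, none of them called.

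Late in the untreated series gst2 was high without peroxide, and with the culture as a block it rose there. At 240 min the untreated cultures 1 and 2 had changes of 1.81 and 1.49, 1.65 ± 0.54 (SE) over both (limma adjusted p = 0.0609, and 0.00682 with the culture as a block). At 240 min gst2 averaged 16.5 ± 4.79 in stressed cultures and 26.3 ± 11.4 in untreated cultures, with overlapping arrays. The highest gst2 signal of the whole series, 34.4, was in an untreated array. At 240 min the fit of all arrays called 0 members in the untreated series, and 9.86% of all probe sets. Before adjustment 2 members were below 0.05, against 22.6% of all probe sets. The block called gst2 higher and grx4 lower, against 19.1% of all probe sets.

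gst3 rose by 50 min in the fit of the 16 early arrays and then followed a different course in each stressed culture. Its signal was 2.4, 4.09, 7.03, 7.54, 11.9, 12.8, 14.1, 7.8, 2.4, 1.38 and 2.44 in stressed culture 1 from 0 to 240 min. In stressed culture 2 it was 2.75, 3.66, 4.12, 4.73, 2.75, 15.2, 15.3, 15.6, 16.5, 15.4 and 15.5. In untreated culture 1 it was 2.63, 4.6, 3.0, 6.55 and 4.22 at 0, 60, 120, 180 and 240 min, and in untreated culture 2 it was 2.18, 4.76, 6.9, 7.35 and 9.97. Up to 30 min culture 1 was ahead of culture 2, at 50 and 60 min the cultures were close, and from 120 min culture 1 was back at or under its 0 min signal while culture 2 stayed high.

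At 60 min gst3 averaged 14.7 ± 0.798 in stressed cultures, against 2.57 ± 0.246 at 0 min (SD, n = 2 each), a change of 2.52 ± 0.99 (SE) in the fit of all arrays (limma adjusted p = 0.199). The fit of the 16 early arrays, whose spread does not include the late times, gave the same change an SE of 0.28 and an adjusted p of 0.000313. It also called gst3 at 50 min (adjusted p = 0.000443). The untreated cultures were above their own 0 min signal of gst3 as well. At 60 min its change was 2.56 and 2.47 in stressed cultures 1 and 2, against 0.81 and 1.13 in untreated cultures 1 and 2. The difference between these was 1.55 ± 1.40 (SE, limma adjusted p = 0.789, 0.0558 in the fit of the 16 early arrays and 0.0407 in that of the compared arrays alone). By 180 and 240 min it was -0.69 and -0.18, with the stressed cultures far apart.

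gst1, the third transferase gene, did not follow gst2. Its signal was between 0.122 and 0.480 in stressed arrays and between 0.143 and 0.383 in untreated arrays. The mean log2 signal of gst1 stood at percentile 8.31 of all probe sets. Whether gst1 could show a change at so low a signal was not tested. Its change at 60 min was 0.70 ± 0.52 (SE, limma adjusted p = 0.466), with 0.61 in stressed culture 1 and 0.78 in stressed culture 2. In untreated cultures 1 and 2 it was -0.69 and -0.02 at that time. None of these 3 fits called gst1 in any comparison. The proteins of gst1 and gst2 are close relatives, and whether their transcripts bind each other's probes was not tested. Over the 20 stressed arrays after 0 min the changes of gst1 and gst2 had r = 0.35.

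The peroxidase gene gpx1, like gst2 and gst3, was high at 50 and 60 min in both stressed cultures. Its signal was 11.7, 13.9, 20.1, 17.8, 15.9, 30.4, 35.3, 21.7, 20.1, 13.4 and 10.03 in stressed culture 1 from 0 to 240 min. In stressed culture 2 it was 7.22, 11.4, 12.4, 12.5, 5.51, 17.7, 18.2, 26.1, 27.8, 25.8 and 25.6. The untreated arrays ranged from 8.24 to 14.1 with a median of 9.92, so that the stressed arrays at 50, 60, 90 and 120 min were above every untreated one in both cultures. gpx1 peaked at 60 min in culture 1 and at 120 min in culture 2, and by 240 min culture 1 was under its 0 min signal.

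At 60 min gpx1 averaged 26.7 ± 12.1 in stressed cultures, against 9.44 ± 3.15 at 0 min (SD, n = 2 each), a change of 1.46 ± 0.50 (SE) in the fit of all arrays (limma adjusted p = 0.18). In the fit of the 16 early arrays it rose at 50 min (limma adjusted p = 0.0372) and at 60 min (0.0264, SE 0.40). Its change in the stressed series less that in the untreated series was 1.34 ± 0.70 (SE) at 60 min. At the later shared times it came to 1.11, 1.10 and 0.26. None of these was called in the fit of all arrays, and that at 60 min was not called in the early fit either (adjusted p = 0.214).

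**Figure D2:**
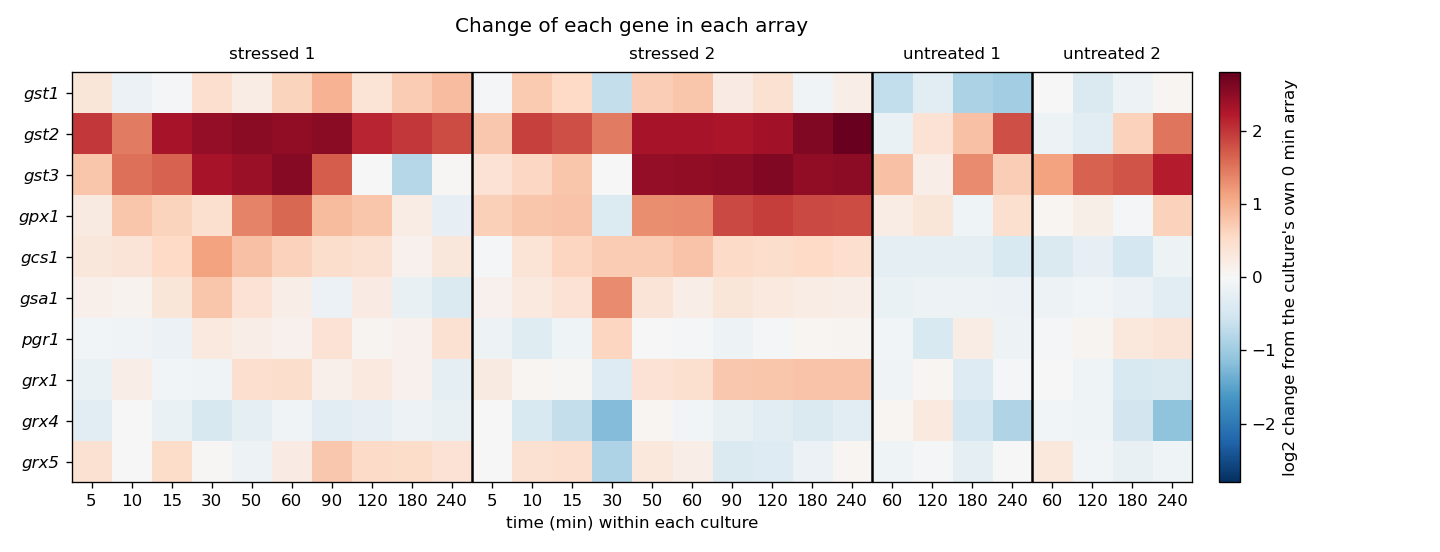
Colour gives the log2 change of each gene (rows) from the same culture's own 0 min array, for every later array (columns, in time order within each culture); red is higher and blue lower. gst2 was red in all 20 stressed arrays after 0 min. gst3 and gpx1 faded after 90 min in stressed culture 1 and stayed red in stressed culture 2. The 30 min column of stressed culture 2 broke the run of gst3, gpx1, grx1 and grx5, and held the lowest change of grx4.

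Among the 3 glutaredoxin genes the fit of all arrays called none at any time. grx1 averaged 24.3 ± 7.29 in stressed cultures at 60 min, against 17.4 ± 4.77 at 0 min, a change of 0.47 ± 0.32 (SE, limma adjusted p = 0.43), and 0.16 to 0.78 on leaving out an array or culture. Stressed cultures 1 and 2 had changes of 0.50 and 0.44, against values at or just under 0 in both untreated cultures. From 90 to 240 min it was 0.75 to 0.80 in stressed culture 2 and -0.26 to 0.28 in stressed culture 1. The changes of grx1 and gpx1 ran closest of all pairs of members, with r = 0.96 over the 20 stressed arrays after 0 min, 0.90 within culture 1 and 0.97 within culture 2. These arrays share 2 cultures and their 0 min arrays, and r is given as a description.

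grx4, whose protein binds the iron-responsive regulators of fission yeast, was below its 0 min mean at every stressed time. Its signal was 12.8, 10.3, 12.7, 11.2, 9.35, 10.7, 11.9, 10.4, 10.9, 11.6 and 11.00 in stressed culture 1 from 0 to 240 min. In stressed culture 2 it was 9.96, 10.03, 7.38, 6.27, 4.29, 10.3, 9.47, 8.61, 8.05, 7.49 and 8.0. The lowest array was that of culture 2 at 30 min. The change at 30 min was -0.83 ± 0.38 (SE), with -0.45 in culture 1 and -1.21 in culture 2 (limma adjusted p = 0.314). Only with the culture as a block did grx4 fall there (adjusted p = 0.03). In the untreated series it averaged 6.17 ± 1.61 at 240 min, against 12.05 ± 1.42 at 0 min, a change of -0.99 ± 0.38 (SE, limma adjusted p = 0.112, and 0.00474 with the block). It was lower than at 0 min in both untreated cultures at 180 and 240 min.

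grx5, whose protein serves iron-sulfur cluster assembly in mitochondria, had no change shared by both cultures over the late times. Its stressed arrays ranged from 1.40, in culture 2 at 30 min, to 5.22, in culture 1 at 90 min, and its untreated arrays from 2.14 to 3.47. At 60 min its change was 0.21 ± 0.48 (SE, limma adjusted p = 0.838), and 0.05 to 0.38 on leaving out an array or culture. From 90 to 240 min it was 0.41 to 0.76 in stressed culture 1 and -0.40 to 0.05 in stressed culture 2. None of the 3 fits called grx5 in any comparison.

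Across the 10 genes, the median of the changes averaged over both cultures was above that of all probe sets at every stressed time, but not in each culture. At 5, 10, 15 and 30 min it was 0.14, 0.25, 0.43 and 0.23, where the medians of all probe sets were -0.04, -0.05, -0.04 and -0.02. The value at 30 min averages unlike cultures: the members' median there was 0.45 in stressed culture 1, against 0.01 over all probe sets, and -0.18 in stressed culture 2, against -0.06. At the other times the members' median was above that of all probe sets in both stressed cultures. At 60 min it was 0.59, with 9 of 10 members higher and grx4 lower, against -0.11 over all probe sets. In the untreated series the members' median was -0.05 at 60 min and at 120 min, -0.19 at 180 min and -0.14 at 240 min, against -0.04, -0.03, -0.04 and -0.03 over all probe sets. These medians describe a list of unlike genes and carry no test.

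In the fit of all arrays limma called 0 members at 60 min, where 0.543% of probe sets were called. There 4 members had an unadjusted p under 0.05, as did 18.9% of all probe sets. At 5, 10 and 15 min it called 0 members and 0% of probe sets. There 1, 1 and 2 members had an unadjusted p below 0.05, against 0.422%, 1.33% and 3% of all probe sets. At 50, 90, 120, 180 and 240 min it called 0 members against 0.302%, 0.322%, 0.161%, 0.0402% and 0.0201% of probe sets. Before adjustment 4, 4, 3, 1 and 1 members were below 0.05, against 19.1%, 12.9%, 9.11%, 5.11% and 3.84% of all probe sets. In the untreated series it called 0 members at 60, 120 and 180 min, where 0.0402%, 1.13% and 5.53% of probe sets were called. There 0 members had an unadjusted p under 0.05, against 2.41%, 9.39% and 16.6% of all probe sets. For the difference of changes it called 0 members at 120, 180 and 240 min (0.261%, 1.45% and 1.49% of probe sets). Before adjustment 2, 1 and 1 members were below 0.05, against 8.47%, 10.2% and 11.9% of all probe sets. The fit of the 16 early arrays called the same 4 members at 50 and at 60 min, gst2, gst3, gpx1 and gcs1, all higher. It called 8.69% of all probe sets higher at 50 min and 8.39% at 60 min, and 19% and 18.7% in either direction. An F-test over all stressed times called 0 members in the fit of all arrays, against 0.483% of probe sets. It called 3 in the early fit (gst2, gst3 and gcs1, against 13.1%) and gst2 alone with the block (1.03%). Before adjustment gsa1, gst2 and gcs1 were below 0.05 in the fit of all arrays, at ranks 44, 137 and 183 among all probe sets. There gpx1 stood at rank 536 with an unadjusted F-test p of 0.0613. The share of all probe sets below 0.05 in that F-test was not counted, so these members are not read as an excess.

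Counted by size in each culture, gst2, gst3 and gpx1 were at least 2-fold above their own 0 min array in both stressed cultures at 50 and 60 min, as were 6.26% and 6.03% of all probe sets. At 10, 15 and 30 min gst2 alone met this (1.29%, 2.33% and 3.96% of all probe sets). At 90 min gst2 and gst3 did (3.84%), and at 120, 180 and 240 min gst2 alone (2.82%, 1.45% and 0.684%). At 5 min no member did (0.583%). In the untreated cultures no member did at 60 or 120 min (1.07% and 2.55%), gst3 did at 180 min (5.83%) and gst2 at 240 min (7.26%). No member was at least 2-fold below its 0 min array in both cultures of either series at any time. Few probe sets were: the largest shares were 6.58% and 5.79% of all probe sets at stressed 50 and 60 min. In the untreated cultures the largest was 3.18%, at 240 min.

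**Figure D3:**
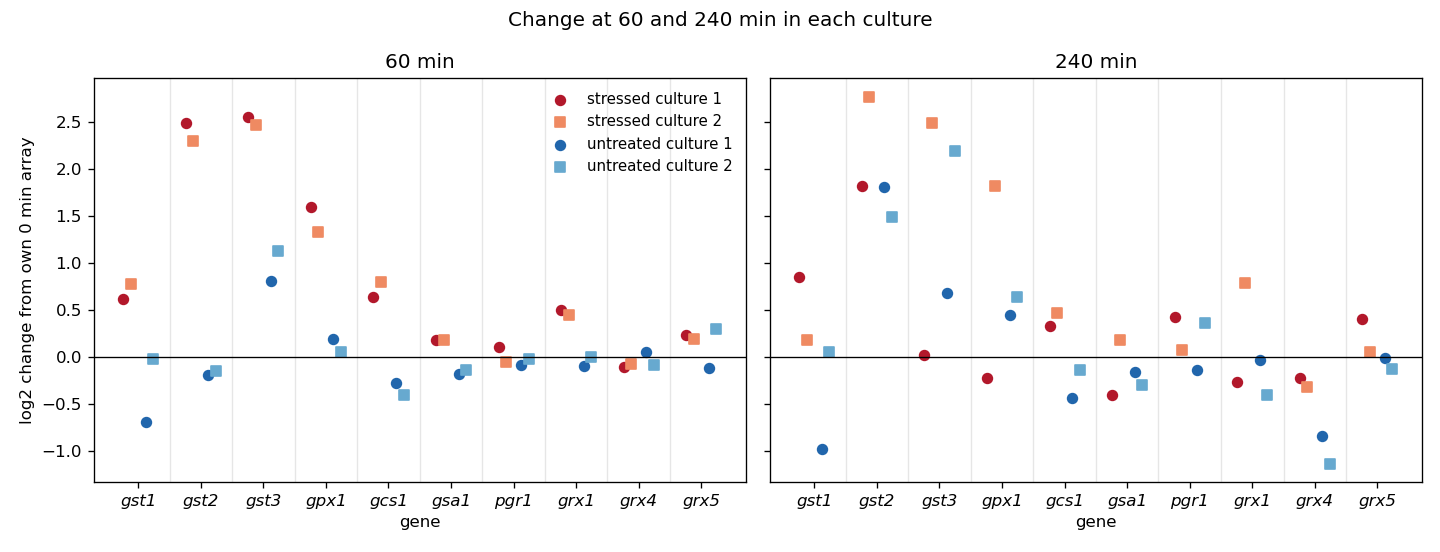
Points give the log2 change of each gene from the culture's own 0 min array at 60 min (left) and 240 min (right), 1 point per culture; red and orange are the stressed cultures and blue the untreated ones. At 60 min the 2 stressed points of each gene lie close together, and at 240 min those of gst3 (0.02 and 2.49) and gpx1 (-0.22 and 1.82) lie far apart.

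Late in the stressed series the cultures lay apart, and the genes differed in how far. At 240 min the change of gst3 was 0.02 in stressed culture 1 and 2.49 in stressed culture 2. For gpx1 these were -0.22 and 1.82, and for grx1 -0.26 and 0.79. gcs1 (0.33 and 0.47) and grx4 (-0.22 and -0.32) were closer at 240 min, while at 180 min gcs1 was 0.13 and 0.56 and grx4 -0.14 and -0.41. gst2 was still high in both at 240 min, at 1.82 and 2.77. At 240 min a mean over the cultures thus covers a higher and a lower culture for gst3, gpx1 and grx1. The gap was smaller at 90 min, where stressed cultures 1 and 2 had 1.70 and 2.50 for gst3 and 0.89 and 1.85 for gpx1. The SE of gst3 in the fit of all arrays, 0.99, carries this spread, and that at 30 min, into every other time.

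Over the 20 stressed arrays after 0 min, gst3 and gpx1 had r = 0.81, gst3 and grx1 0.68, gst2 and gst3 0.65 and gcs1 and gsa1 0.60. gst1 and grx5 had 0.69, and both were higher in culture 1 than in culture 2 at 90, 180 and 240 min. The lowest r among members was -0.69, between gsa1 and grx4, which moved apart at 30 min. Within stressed cultures 1 and 2 that r was -0.43 and -0.84, and culture 2 holds the 30 min array that stands apart. The others also differed between cultures 1 and 2: 0.71 and 0.91 for gst3 and gpx1, 0.39 and 0.90 for gst3 and grx1. For gst2 and gst3 they were 0.55 and 0.85, for gcs1 and gsa1 0.83 and 0.40, and for gst1 and grx5 0.50 and 0.80. Of the genes outside the 10, those most like gst3 were ayr1, mkh1 and tcb2 (r = 0.97, 0.96 and 0.95), and those most like gpx1 were mug35, stg1 and ctr6 (0.97, 0.97 and 0.96). Those most like grx1 were pms1, dad1 and mug35 (0.95, 0.95 and 0.93). The nearest to gcs1 were nca2, cat1 and sre1 (0.90, 0.88 and 0.88), and to gsa1 erg6, ero12 and gly1 (0.90, 0.87 and 0.87).

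The other members were compared in the same way. For gst2 the nearest were ypt5, mud1 and vps32 (r = 0.85, 0.84 and 0.84), and for gst1 pex11, erg2 and pht1 (0.84, 0.80 and 0.79). For pgr1 they were snz1, kpa1 and act1 (0.88, 0.84 and 0.84). For grx4 they were rpn9, ely5 and atp3 (0.89, 0.88 and 0.88), and for grx5 erg2, taf10 and rrn10 (0.93, 0.92 and 0.90). All these r are over 20 arrays of 2 cultures and were picked as the highest of the 1-gene probe sets.

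Genes around the glutathione cycle were followed through 6 lists, of whose 76 names 52 were found on the array. At 60 min the fit of all arrays called 0 genes in any of the 6 lists. The lowest limma adjusted p among them in that fit was 0.0882, for ctt1. The counts that follow are from the fit of the 16 early arrays, which called 8.39% of all probe sets higher and 10.3% lower. For these lists, rose and fell mean called in the early fit alone. Among 11 other glutathione-linked genes 2 rose and 0 fell, with a median change of 0.33. They were hmt1, a vacuolar transporter gene of cadmium tolerance, at 0.99 (SE 0.20, limma adjusted p = 0.00771), and ggt2, a gamma-glutamyltransferase gene of glutathione breakdown, at 0.70 (SE 0.17, adjusted p = 0.0178). Less the change in the untreated series, hmt1 had 1.01 and ggt2 0.43, neither called in that fit (limma adjusted p = 0.079 and 0.371). The transporter genes abc2 and abc3 had changes of 0.33 and 0.60 and were not called.

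Of the supply routes, in the same fit, 1 of 4 genes for NADPH rose and 2 of 8 genes for cysteine fell. zwf1, the glucose-6-phosphate dehydrogenase gene of the pentose phosphate pathway, had a change of 1.55 (SE 0.33, limma adjusted p = 0.00959), with 1.65 and 1.45 in stressed cultures 1 and 2. Less the change in the untreated series, zwf1 had 1.78 and was not called in that fit (limma adjusted p = 0.0673). idp1 (0.28), tal1 (0.19) and pos5 (-0.91) were not called. sua1 and met14, whose enzymes activate sulfate before it is reduced for cysteine, fell by 1.03 (SE 0.23, adjusted p = 0.011) and 0.92 (SE 0.23, adjusted p = 0.0182). Less the untreated change these were -0.67 and -0.84, neither called in that fit (limma adjusted p = 0.287 and 0.182). sir1, a sulfite reductase gene, had a change of -0.91 and cys2 one of -0.28, neither called. The median change was 0.24 over the NADPH genes and -0.20 over the cysteine genes, where gcs1, which consumes cysteine, had 0.72.

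On the thioredoxin and peroxide side 3 of 8 genes rose in that fit: ctt1 (catalase) by 3.35, srx1 (sulfiredoxin) by 3.33 and trr1 (thioredoxin reductase) by 1.01 (SE 0.48, 0.34 and 0.31, limma adjusted p = 0.00134, 0.000268 and 0.0433). Less the change in the untreated series, that fit called ctt1 (3.56, limma adjusted p = 0.0188) and srx1 (3.57, 0.0044) but not trr1 (1.19, 0.161). tpx1, the main peroxiredoxin gene, had 0.45 and was not called. trr1 is the counterpart of pgr1 for thioredoxin, and pgr1 had 0.03. At 240 min ctt1 and srx1 parted between the cultures as gst3 and gpx1 did, with 0.19 and -0.47 in stressed culture 1 and 3.59 and 3.47 in stressed culture 2.

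None of the 9 iron-sulfur and iron genes found passed that fit in either direction, with a median of -0.01. Among them isu1, a scaffold for cluster assembly, had 0.27, arh1, a ferredoxin reductase gene, -0.45, and the iron-responsive regulators fep1 and php4 -0.72 and 0.23. Of 12 regulators of the peroxide response pyp2, a phosphatase gene acting on the Sty1 kinase, rose by 4.04 (SE 0.38, limma adjusted p = 0.000132). win1, a kinase gene upstream of Sty1, fell by 0.66 (SE 0.21, adjusted p = 0.0474). Less the change in the untreated series, that fit called pyp2 (4.37, limma adjusted p = 0.00211) but not win1 (-0.29, 0.637). The kinase genes wis1 (-0.62) and sty1 (0.06) were not called. The median over the 12 was 0.15, against 0.59 for the 10 glutathione genes.

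**Figure D4:**
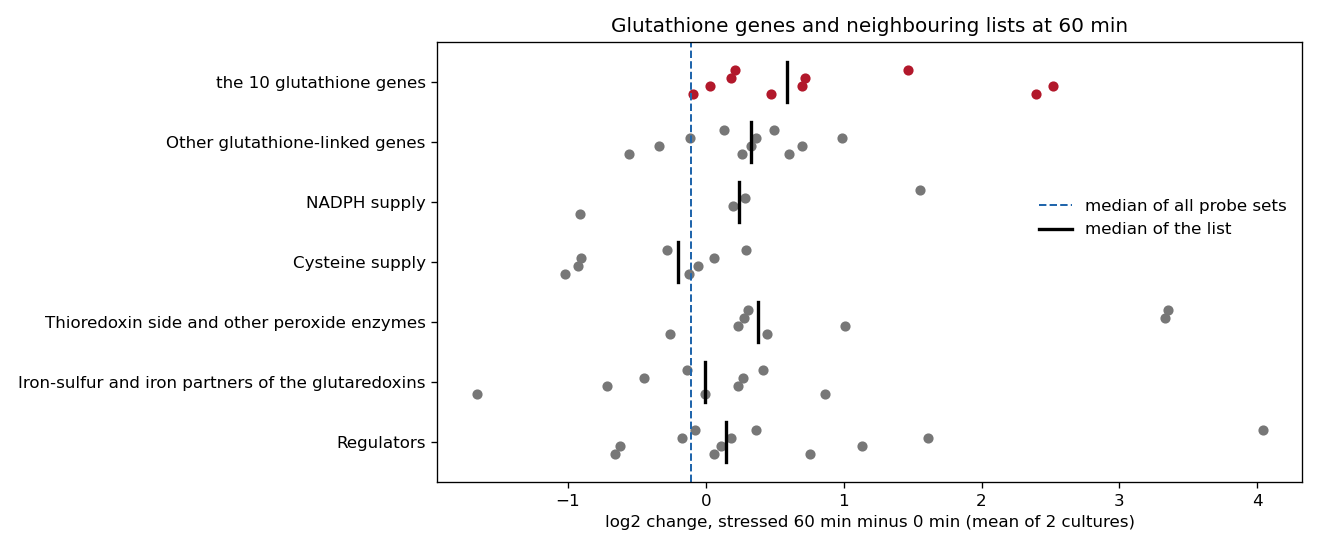
Points give the log2 change of each gene at 60 min of peroxide minus 0 min, as the mean of 2 stressed cultures, for the 10 glutathione genes (red) and 6 lists around them (grey); black bars are list medians and the dashed line is the median of all probe sets, -0.11. gst2 and gst3 stand at 2.40 and 2.52, and the cysteine supply list is the 1 list whose median lies below that of all probe sets.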

How the data were processed

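Total RNA was hybridised to 32 arrays, 2 in each of 16 groups of series and time. The authors deposited 1 signal per probe set and array on a linear scale, from 0.0029 to 64.6. The background correction, probe summary and array scaling are not given in the sources used here. Precision is limited by having 2 arrays per group.

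In the platform annotation 2903 probe sets had 1 symbol, 16 had several and 2053 had none. A RefSeq gene table (ASM294v3) held the gene IDs of 2900 of these 2903 and gave 110 of them a newer symbol. It served for names alone, and no coordinates or sequences are given.

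Signals were log2-transformed with no pseudocount, none being at 0, and fitted in limma 3.58.1 (R 4.3.3) with 1 mean per group over all 32 arrays (lmFit and eBayes, 16 residual and 3.23 prior degrees of freedom). Each of 19 comparisons and the F-test was adjusted by the Benjamini-Hochberg method over 4972 probe sets, calling p under 0.05. Stressed and untreated times were compared with 0 min of their series, the changes of both series with each other at the 4 shared times, and both series at 0 min. The fit of the 16 early arrays had 8 residual degrees of freedom and that with the culture as a block had 14. The test was tried on simulated data. Other alternatives were quantile scaling, median centring, a pseudocount of 0.1, leaving out the lowest 0.25 of probe sets by signal, trended and robust eBayes, all 0 min arrays as baseline, probe sets with 1 symbol, the compared arrays alone and leaving out cultures or arrays.

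The culture number pairs arrays within a series, because the labels name each number as 1 time series. Deviations of culture 2 from culture 1 correlated between times with a median r of 0.707 in the untreated series (lowest 0.362, 10 of 10 pairs above 0.1) and 0.259 in the stressed series (lowest -0.369, 34 of 55 pairs). Numbers do not pair a stressed with an untreated culture. The labels call the cultures independent, and each p-value sets a change against the spread between these samples. In every fit the residual degrees of freedom come from repeated samples of 2 cultures per series. The fit of all arrays and that of the early arrays hold no culture term and take these samples as independent. The block takes out a constant offset per culture, but not a parting of the cultures over time. The p-values of all these fits carry this limit.

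The 10 genes and the 6 lists were chosen with earlier results of these data known. Named besides the 10 are, per list, up to 4 genes with the lowest F-test p, and for each of the 10 the 3 most alike probe sets with 1 symbol. trx3 was found as txl1, and the platform's sod2 probe set, now nhe1, was not counted.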

Additional observations from a re-analysis of the deposited data

How the results depend on the processing

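Of the recomputed counts of called members, 337 stayed within 1.5 times the count from all arrays and 54 did not. The count from all arrays was 0 everywhere but at stressed 30 min. Staying within the range of such a count means only that again no member was called. At 30 min (2 members called) the culture as a replicate block gave 4, quantile scaling 1, probe sets with 1 symbol 1 and the compared arrays alone 0, and leaving out an array or culture gave 0 to 1. At 50 min (0 called) the block, quantile scaling and median centring gave 1 each, the early arrays 4, and all 0 min arrays as baseline and the compared arrays alone 2 each. At 60 min (0 called) the block, quantile scaling, median centring, the filter on low signal and trended eBayes gave 1 each, the early arrays 4, all 0 min arrays as baseline 3 and the compared arrays alone 2. At 90 min (0 called) the block, quantile scaling, median centring, the filter and trended eBayes gave 1 each. The block gave 1 at 120, 180 and 240 min and in the F-test, where the early arrays gave 3. Leaving out an array or culture gave 0 to 1 at 50, 60, 180 and 240 min and in the F-test, and 0 to 2 at 90 and 120 min. In untreated cultures at 180 min the compared arrays alone gave 1, and at 240 min the block, median centring and the compared arrays alone gave 2, quantile scaling 1 and leaving out an array or culture 0 to 1. The compared arrays alone called 17.2% and 10.9% of all probe sets at these untreated times, and 11.3% and 8.23% at stressed 50 and 60 min. Shares for the block and the early arrays are given above. For the other alternatives no share is given, and their counts are not read as a result about the members. For the difference of changes the early arrays gave 1 and the compared arrays alone 2 (gst2 and gst3) at 60 min, and leaving out a culture or array 0 to 1 at 180 min. The block changed no other count beyond this range. The cause of these shifts was not tested.

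The change of pgr1 at 60 min, 0.03, was -0.046 after quantile scaling, -0.0062 with all 0 min arrays as baseline, and -0.074 to 0.14 on leaving out an array or culture. That of grx4, -0.09, was -0.27 to 0.090 on leaving out an array or culture. Of the single-gene changes and list counts, 279 recomputed values kept their direction and call, 19 lost a call (gcs1 and gsa1 at 30 min), 16 gained one (gst2, gst3, gpx1 and gcs1 at 60 min) and 11 list counts shifted by over 1.5 times. The adjusted p of gcs1 at 30 min ran from 0.00739 to 0.371 over 17 alternatives (under 0.05 in 5), and that of gsa1 from 0.00354 to 0.277 (under 0.05 in 10). gst2 at 60 min was called in 9 of 19, with adjusted p from 0.0071 to 0.516. Of the alternatives for gcs1 and gsa1 at 30 min, and of those for the lists, all were chosen after seeing the data. Leaving out a stressed culture leaves 1 array per stressed group, which is then assumed to vary like the other groups. With 2 arrays per group the precision is limited. In simulated arrays for the stressed 60 min comparison, run on 4972 probe sets, the test called 28% of log2 changes of 1, 76.6% of 2, 90.6% of 3 and 96.8% of 4. Each simulated array was drawn independently, with 1 spread per probe set. The simulation held no culture effect, no late parting of the cultures and no outlying array. These shares therefore need not hold for repeated samples of 2 cultures per series. Smaller changes, such as those of pgr1, grx4, grx5, grx1 and gsa1 at 60 min, were not simulated.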
